A study of Rattus norvegicus with 6 samples.

Results

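Transcripts of 43 cell cycle and replication genes were followed in the renal cortex of rats that received ethylenediamine dihydrochloride or water. The genes come from a list of symbols, 14 of DNA replication, 5 of the G1/S transition and 24 of mitosis, and each was represented by its brightest probe over all arrays. A probe named by its RefSeq accession was found for 39 of the 43, and 37 of these entered the comparison, out of 11530 genes compared in all. Each group held 3 male Sprague-Dawley rats, which were 5 weeks old when bought and were kept on the same basal diet. The treated animals received ethylenediamine dihydrochloride, a salt of a small diamine, at 500 mg/kg/day for 4 weeks, and the control animals received water for the same 4 weeks. Total RNA of the whole renal cortex was hybridised to 1-colour arrays, 1 animal per array, so that tubule, vessel and blood cells contributed to each value. All 8 proximal tubule markers looked for, the sodium phosphate cotransporter Slc34a1 and the endocytic receptor Lrp2 among them, were well above background on all 6 arrays.

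A cell that commits to division first passes the G1/S transition, where cyclin D and cyclin E with their kinases inactivate the retinoblastoma protein and release E2F transcription factors. E2F then drives genes for licensing of origins, for the replicative helicase and for nucleotide supply, and DNA is copied in S phase. Genes for the mitotic cyclins, the spindle motors and the checkpoint are transcribed later, in G2 and M, through promoter elements bound by the DREAM and MuvB complexes, FOXM1 and NF-Y. In the adult kidney few tubule cells cycle, and tubule cells that survive an injury re-enter the cycle during repair.

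Values are the log2 processed intensity of a probe relative to the 75th percentile of its array, called the log2 signal below, so that 0 is the 75th percentile. Differences and fold changes are on this scale. The 6 arrays had 35691 to 40843 probes well above background, and ethylenediamine replicate 1 had the fewest. Probes never above background had a median log2 signal of -6.53 on that array, against -7.55 to -7.23 on the others. The effect of this higher floor on dim genes, such as Ccne1, Ccne2, Mcm6 and Tpx2, was not tested. There were 2 slides, each with its own scan day. All water arrays were on slide 1 together with the first treated replicate, and the other 2 treated animals were on slide 2. A comparison within slide 1 therefore sets ethylenediamine replicate 1 alone against water. In whole tissue, more cycling cells and more RNA per cell cannot be told apart.

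Of the 43 genes, 4 had no probe named here: the helicase subunit Mcm5, topoisomerase Top2a, the checkpoint kinase Bub1b and the kinase Melk. Neither of 2 further genes passed the filter, which asked for a signal well above background on all 3 arrays of a group. The licensing factor Cdc6 was well above background on 1 water array and 2 treated arrays, with log2 signals of -4.43, -6.18 and -5.19 in water and -4.97, -4.48 and -4.89 in ethylenediamine. The chromosomal passenger kinase Aurkb was well above background on 1 of the 6 arrays, that of ethylenediamine replicate 3. The 37 remaining genes were well above background on all 6 arrays, 12 of replication, 5 of G1/S and 20 of mitosis, so the filter on dim probes decided none of their values.

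The promoters are shown first, because the replication and the mitotic genes held E2F and CHR words in different shares of the windows around their start sites. No test of these shares was made. RefSeq promoter windows of the GRCr8 assembly, 250 bases before to 50 bases after a transcription start, were matched by symbol to 11 of the 14 replication genes, 2 of the 5 G1/S genes and 19 of the 24 mitotic genes. An E2F word (TTTCCCGC, TTTGGCGC, TTTCGCGC or TTTGCCGC, on either strand) stood in 7 of the 11 replication windows (63.6%), in 1 of the 19 mitotic windows (5.26%) and in 2.14% of all 33469 windows. The cell cycle homology region, or CHR (TTTGAA or TTCGAA, on either strand), stood in 3 replication windows (27.3%), in 13 mitotic windows (68.4%) and in 19.7% of all windows. The NF-Y word CCAAT, on either strand, was found in 8 replication windows (72.7%) and 15 mitotic windows (78.9%), against 37.5% of all windows. CHR and CCAAT stood together in 12 mitotic windows (63.2%), 2 replication windows (18.2%) and 7.95% of all windows. These are matches of letters, not measured binding.

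The 250 bases before the start are printed for the replication and mitotic genes with the smallest p-values among those with a window (Mcm3, Mcm6, Kif11 and Aurka), and for Cdk1, added after its values were seen because its window holds all of the motifs. Capitals mark a complete E2F word, CHR or CCAAT word on either strand, and positions count back from the start site.
Mcm3, chr9:30733747-30733996, minus strand: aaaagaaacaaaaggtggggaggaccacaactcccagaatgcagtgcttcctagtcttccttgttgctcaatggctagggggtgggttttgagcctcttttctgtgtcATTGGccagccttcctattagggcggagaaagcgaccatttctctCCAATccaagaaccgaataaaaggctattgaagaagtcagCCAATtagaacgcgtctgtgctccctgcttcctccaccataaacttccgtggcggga
Mcm6, chr13:42404353-42404602, minus strand: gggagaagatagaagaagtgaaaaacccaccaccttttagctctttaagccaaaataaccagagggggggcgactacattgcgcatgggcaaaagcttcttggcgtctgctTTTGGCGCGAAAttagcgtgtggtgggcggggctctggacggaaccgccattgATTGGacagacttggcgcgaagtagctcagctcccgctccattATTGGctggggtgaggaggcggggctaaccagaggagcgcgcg
Kif11, chr1:244536617-244536866, plus strand: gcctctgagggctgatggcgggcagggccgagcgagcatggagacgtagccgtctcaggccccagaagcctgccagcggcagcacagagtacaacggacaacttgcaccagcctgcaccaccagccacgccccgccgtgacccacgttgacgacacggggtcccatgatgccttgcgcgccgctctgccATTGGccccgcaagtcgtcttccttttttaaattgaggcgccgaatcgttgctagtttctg
Aurka, chr3:181560770-181561019, minus strand: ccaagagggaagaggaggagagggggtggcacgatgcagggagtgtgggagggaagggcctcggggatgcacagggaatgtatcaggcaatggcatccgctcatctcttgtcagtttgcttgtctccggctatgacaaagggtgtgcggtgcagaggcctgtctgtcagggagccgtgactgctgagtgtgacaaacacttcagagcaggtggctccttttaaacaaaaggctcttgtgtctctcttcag
Cdk1, chr20:19265043-19265292, plus strand: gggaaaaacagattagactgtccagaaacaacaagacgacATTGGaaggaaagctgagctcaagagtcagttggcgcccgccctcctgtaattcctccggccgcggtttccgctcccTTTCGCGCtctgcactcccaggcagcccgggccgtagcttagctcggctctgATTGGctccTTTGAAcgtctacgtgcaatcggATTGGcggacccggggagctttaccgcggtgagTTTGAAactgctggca
In Mcm6, E2F words on opposite strands overlap, from 139 to 132 and from 135 to 128 bases before the start. In Mcm3, an E2F word spans the start site itself and another lies after it, so neither is in the printed stretch, which shows CCAAT words at 142, 97 and 57 bases before the start. Cdk1 has a CHR at 72 and at 16 bases before the start, CCAAT words at 210, 81 and 49 bases, and an E2F word at 133 bases. Kif11 has a single CCAAT word at 61 bases and no CHR, and the Aurka stretch holds none of the words searched.

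None of the 37 genes passed the threshold, an adjusted p of 0.05 (limma, Benjamini-Hochberg over 11530 genes), where 0% of all genes passed. The adjusted p-values of the 37 lay between 0.329 and 0.99, and the smallest of any gene was 0.0973. By the unadjusted limma p, 5 of the 37 (13.5%) lay below 0.05 with the treated mean higher, against 5.39% of all genes (621), and 0 with it lower, against 4.97% (573), or 10.4% of all genes in either direction. The 5 were the helicase subunits Mcm3 and Mcm6, the transcription factor E2f1, the spindle motor Kif11 and the spindle assembly factor Tpx2. In 6 of the 37 (16.2%) every treated array was above every water array, against 9.2% of all genes, and in 0 every treated array was below, against 8.27%. Those 6 were Mcm3, Mcm6, Mcm7, Gmnn, E2f1 and Kif11. The estimate was above 0 in 29 of 37 genes, against 48.8% of all genes, with a median of 0.12 over the 37 and of -0.0036 over all genes.

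**Figure D1:**
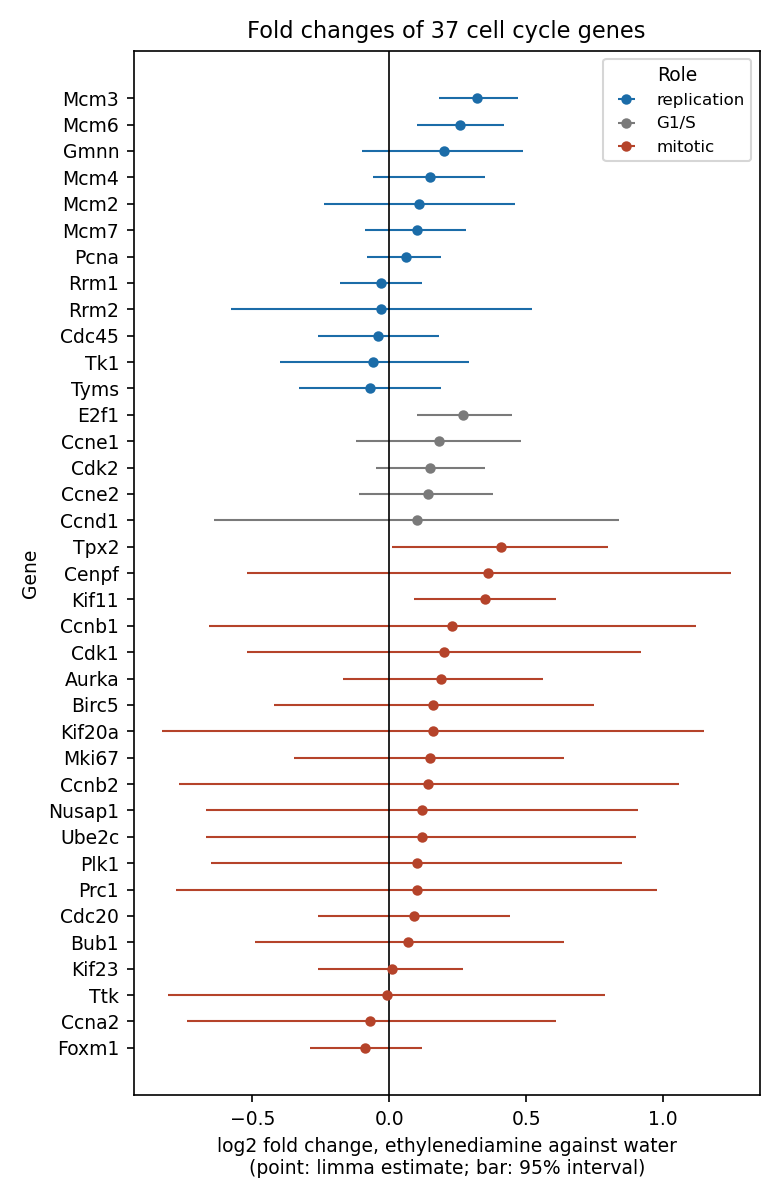
Log2 fold change of ethylenediamine against water for the 37 genes (horizontal axis, points, with the 95% intervals of the limma fit as bars), grouped as replication (top), G1/S (middle) and mitotic genes (bottom). The replication genes lie between -0.07 and 0.32 and the mitotic genes between -0.09 and 0.41, and the intervals of most mitotic genes are wider.

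Among the replication genes, Mcm3, Mcm6, Mcm7 and Gmnn were higher in every treated animal than in any water animal, while Pcna, Cdc45, Rrm1, Rrm2, Tyms and Tk1 overlapped between the groups. Mcm2 to Mcm7 form the hexameric helicase that is loaded at origins in G1 and unwinds DNA in S phase. In water, Mcm3 had log2 signals of -0.60, -0.66 and -0.68, and in ethylenediamine -0.36, -0.37 and -0.24. Every treated array thus exceeded every water array, by a difference of 0.32 ± 0.06 (SE, n = 3 per group, 95% interval 0.18 to 0.47), a fold of 1.25 with an adjusted p of 0.329. The other kept Mcm3 probes gave differences of 0.44 and 0.54. Mcm6, with log2 signals of -3.59, -3.56 and -3.58 in water and -3.29, -3.43 and -3.25 in ethylenediamine, showed the same order of groups. Its difference was 0.26 ± 0.06 (SE, n = 3 per group, interval 0.10 to 0.42), a fold of 1.19 with an adjusted p of 0.344. Within slide 1, where the treated side is replicate 1 alone and already part of these means, the difference was 0.29 for Mcm3 and 0.29 for Mcm6.

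The other helicase subunits differed less, or on fewer arrays. Mcm4 had log2 signals of -0.80, -0.75 and -0.53 in water and -0.56, -0.56 and -0.52 in ethylenediamine, a difference of 0.15 ± 0.08 (SE, adjusted p = 0.597) in which water replicate 3 overlapped the treated animals. Mcm7 had 1.27, 1.48 and 1.48 in water and 1.54, 1.50 and 1.49 in ethylenediamine, so the groups did not overlap, but the gap between them was small beside the spread in water (difference 0.10 ± 0.08, SE, adjusted p = 0.683). Mcm2 stood out on a single array. Its log2 signals were -0.95, -0.89 and -0.80 in water and -0.95, -0.91 and -0.46 in ethylenediamine, where replicate 3 lay 0.42 above the water mean and the other treated arrays lay among the water arrays or at their lower edge (difference 0.11 ± 0.14, SE, adjusted p = 0.808). Gmnn encodes geminin, which blocks a further round of licensing. It was tightly grouped in the treated animals (-3.00, -2.99 and -3.00) and just above the water arrays (-3.46, -3.09 and -3.04), of which replicate 1 was the lowest (difference 0.20 ± 0.12, SE, adjusted p = 0.616). Cdc45, the helicase cofactor, differed by -0.04 ± 0.09 (SE).

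For the sliding clamp and the members of nucleotide supply the groups overlapped. Pcna, the clamp of the replicative polymerases and a common label of proliferating cells, had log2 signals of 1.73, 1.73 and 1.75 in water and 1.85, 1.74 and 1.78 in ethylenediamine. Its difference of 0.06 ± 0.05 (SE, adjusted p = 0.743) had an interval of -0.08 to 0.19. Rrm1, the large subunit of ribonucleotide reductase, had -1.15, -1.23 and -1.14 in water and -1.27, -1.20 and -1.14 in ethylenediamine (difference -0.03 ± 0.06, SE, adjusted p = 0.887). The small subunit, Rrm2, whose transcript is made in S phase, was spread more widely. Its values were 1.40, 1.08 and 1.21 in water and 0.92, 0.99 and 1.69 in ethylenediamine, with treated replicates 1 and 2 the lowest of the 6 arrays and replicate 3 the highest (difference -0.03 ± 0.22, SE, adjusted p = 0.973). The other kept Rrm2 probes, all much dimmer, gave 0.19, 0.43 and -0.96, so the sign and the order of arrays depend on the probe. Thymidine kinase Tk1 had the order of the brightest Rrm2 probe, with 0.48, 0.29 and 0.39 in water and 0.17, 0.19 and 0.63 in ethylenediamine (difference -0.06 ± 0.14, SE, adjusted p = 0.912). Thymidylate synthase Tyms did not share it, with -0.64, -0.54 and -0.28 in water and -0.56, -0.48 and -0.62 in ethylenediamine (difference -0.07 ± 0.11, SE, adjusted p = 0.845).

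All 5 genes of the G1/S transition had estimates above 0, from 0.10 to 0.27, against 48.8% of all genes. E2f1 alone (20%) had treated animals wholly above the water animals, against 9.2% of all genes. With only 5 genes, these counts do not set the G1/S genes apart. E2f1, the activator E2F that induces the replication genes, had log2 signals of -1.51, -1.49 and -1.44 in water and -1.20, -1.32 and -1.11 in ethylenediamine. The groups did not overlap, and the difference was 0.27 ± 0.07 (SE, n = 3 per group, interval 0.10 to 0.45), a fold of 1.21 with an adjusted p of 0.353. A further kept E2f1 probe gave 0.53. On replicate 1 alone, the value within slide 1, the difference was 0.29. Cyclin E1 (Ccne1), which activates Cdk2 at the start of S phase, was highest on ethylenediamine replicate 1, with -3.67, -3.78 and -3.61 in water and -3.26, -3.69 and -3.56 in ethylenediamine (difference 0.18 ± 0.12, SE, adjusted p = 0.652). The groups overlapped for Ccne1 as they did for Ccne2 (0.14 ± 0.10, SE) and Cdk2 (0.15 ± 0.08, SE).

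Cyclin D1 (Ccnd1), which links growth signals to the retinoblastoma protein, followed a different order. Its log2 signals were 2.54, 2.36 and 2.63 in water and 2.33, 2.20 and 3.31 in ethylenediamine. Treated replicates 1 and 2 were the lowest of the 6 arrays, and replicate 3 was 0.80 above the water mean, a fold of 1.74, so that the difference between the group means was 0.10 ± 0.30 (SE, interval -0.64 to 0.84, adjusted p = 0.927). The other kept Ccnd1 probes were also highest on ethylenediamine replicate 3, at 3.03 against 1.95 to 2.36 on the other arrays and at 1.59 against 0.62 to 1.01.

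**Figure D2:**
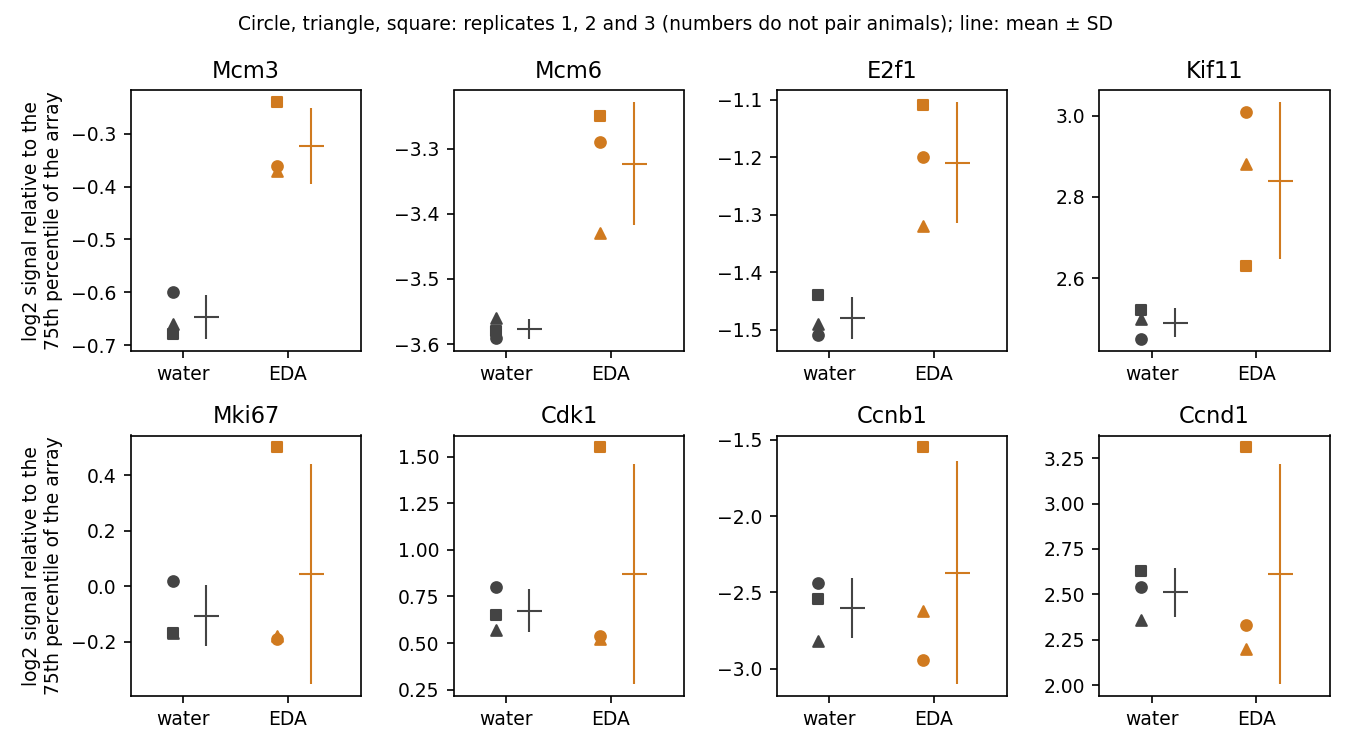
Log2 signal relative to the 75th percentile of the array (vertical axis, a different range in each panel) for 8 genes in water and ethylenediamine (EDA), with 1 symbol per animal (circle, triangle and square for replicates 1, 2 and 3) and the mean ± SD beside it. For Mcm3, Mcm6, E2f1 and Kif11 all treated animals lie above all water animals, and for Mki67, Cdk1, Ccnb1 and Ccnd1 ethylenediamine replicate 3 alone lies above them.

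The mitotic genes were highest in a single treated animal. Of the 20 mitotic genes measured, 16 (80%) had their highest value on ethylenediamine replicate 3, against 19.9% of all genes (2293). In all 16 the lead over the next array was at least 0.3, which held for 2.38% of all genes (274). On that array 16 of the 20 lay 0.5 or more above the water mean, against 4.88% of all genes (563), with a range from -0.00 for Foxm1 to 1.19 for Cenpf. On ethylenediamine replicate 1 and again on replicate 2, 16 of the 20 lay below the water mean. Both arrays were below it for 14 genes (70%), against 30.9% of all genes. The treated group thus held the highest values and some of the lowest, and the standard errors of these genes were large. The choice of replicate 3 and of the cuts at 0.3 and 0.5 was not planned. It was made after the values were seen, so these counts describe the pattern and do not test it.

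Mki67, the proliferation antigen present in all active phases of the cycle, had log2 signals of 0.02, -0.17 and -0.17 in water and -0.19, -0.18 and 0.50 in ethylenediamine. Replicate 3 was 1.52-fold above the water mean while the other treated animals matched the lower water animals (difference 0.15 ± 0.20, SE, interval -0.35 to 0.64, adjusted p = 0.819). Cdk1, the kinase that drives entry into mitosis, had 0.80, 0.57 and 0.65 in water and 0.54, 0.52 and 1.55 in ethylenediamine. Here replicate 3 was 1.84-fold above the water mean (difference 0.20 ± 0.29, SE, interval -0.52 to 0.92, adjusted p = 0.832). Its partner cyclin B1 (Ccnb1) had -2.44, -2.82 and -2.54 in water and -2.94, -2.62 and -1.55 in ethylenediamine, a fold of 2.06 on replicate 3 (difference 0.23 ± 0.36, SE, interval -0.66 to 1.12, adjusted p = 0.843). Cyclin A2 (Ccna2), which serves both S phase and the entry into mitosis, was lowest on treated replicates 1 and 2 and highest on replicate 3, with -1.16, -1.03 and -1.28 in water and -1.50, -1.58 and -0.59 in ethylenediamine (difference -0.07 ± 0.27, SE, adjusted p = 0.947). Its other kept probes gave 0.26 and 0.30, so the sign for Ccna2 depends on the probe, whereas all 3 were highest on replicate 3. Cenpf, a kinetochore protein that accumulates in G2, had the widest excursion, with -4.18, -4.47 and -4.50 in water and -4.31, -4.56 and -3.20 in ethylenediamine, a fold of 2.28 on replicate 3 (difference 0.36 ± 0.36, SE, adjusted p = 0.745).

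The 11 other genes with this lead covered successive steps of mitosis. They were cyclin B2 (Ccnb2), the kinases Plk1, Aurka, Bub1 and Ttk, the anaphase-promoting complex partners Cdc20 and Ube2c, the passenger protein Birc5, and the spindle and midzone proteins Kif20a, Nusap1 and Prc1. On ethylenediamine replicate 3 they ran from 1.32-fold (Cdc20) to 2.11-fold (Kif20a) above the water mean. No group separation was seen for any of them. Aurkb, left out of the comparison as too dim, also had its highest value there, at -4.51 against -6.48 to -5.72 on the arrays where it was not well above background. Of the 12 further kept probes, for 8 of the mitotic genes, 11 were highest on replicate 3 as well.

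The remaining 4 mitotic genes did not follow that order. Kif11, the plus-end motor that separates the spindle poles, was above all water arrays (2.45, 2.50 and 2.52) in every treated animal (3.01, 2.88 and 2.63), and replicate 3 was the lowest of the treated. Its difference was 0.35 ± 0.10 (SE, n = 3 per group, interval 0.09 to 0.61), a fold of 1.28 with an adjusted p of 0.38, and a further kept probe gave 0.32. On replicate 1 alone, the value within slide 1, it was 0.52. Tpx2, which activates Aurora A on the spindle, had -3.34, -3.65 and -3.43 in water and -2.90, -3.39 and -2.91 in ethylenediamine. It was about equally high on replicates 1 and 3, and replicate 2 overlapped water (difference 0.41 ± 0.16, SE, interval 0.01 to 0.80, adjusted p = 0.479). Foxm1, the transcription factor of the G2/M genes, had -1.24, -1.39 and -1.48 in water and -1.47, -1.53 and -1.37 in ethylenediamine, so replicate 3 lay on the water mean (difference -0.09 ± 0.08, SE, interval -0.29 to 0.12, adjusted p = 0.733). The midzone motor Kif23 differed by 0.01 ± 0.11 (SE).

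**Figure D3:**
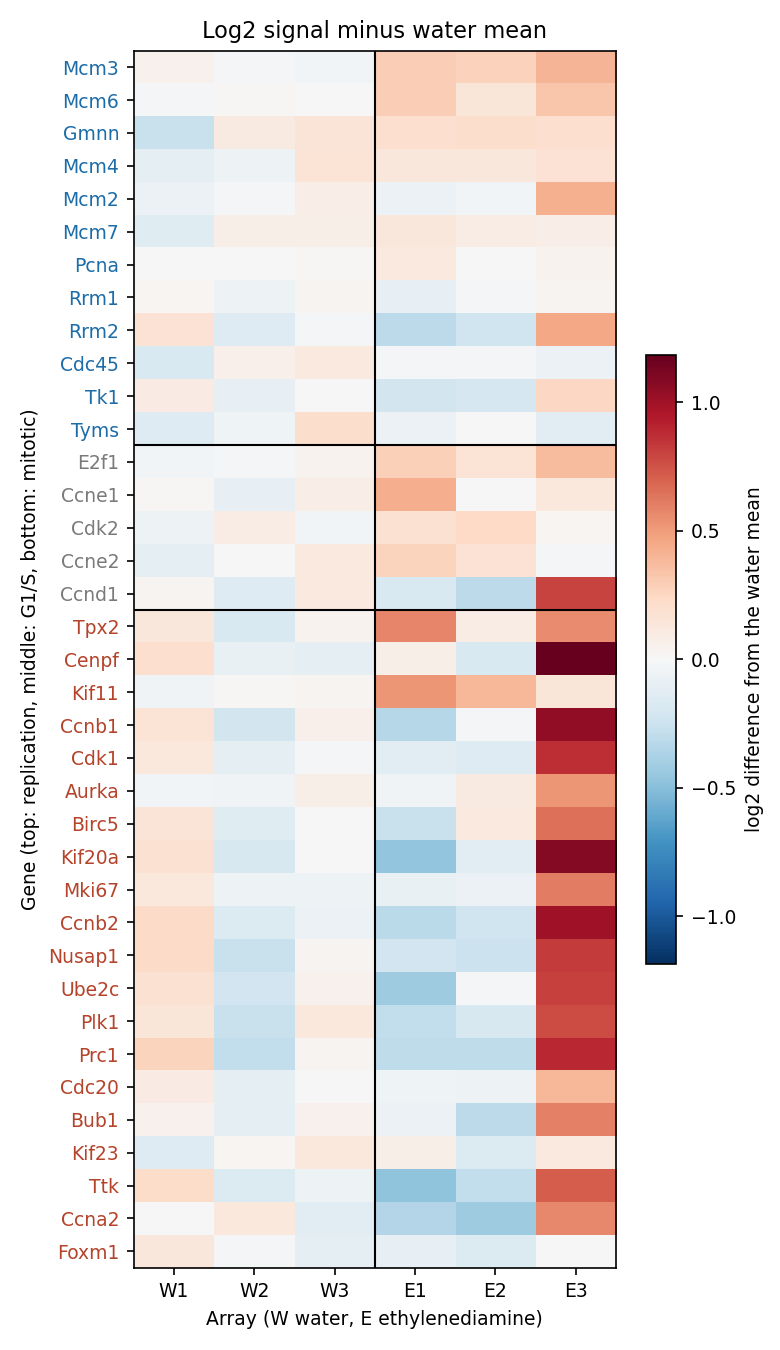
Log2 signal of each of the 37 genes minus its mean over the 3 water arrays (colour scale, red above and blue below), with genes as rows, replication at the top, G1/S in the middle and mitotic genes at the bottom, and the 6 arrays as columns (W water, E ethylenediamine, by replicate). Most mitotic rows are darkest red on E3, with a median of 0.69 on that array against 0.14 on W1, and blue on E1 and E2, while Mcm3, Mcm6, E2f1 and Kif11 are red on all 3 treated arrays.

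The group estimates alone hardly set replication and mitotic genes apart, with a median log2 fold change of 0.08 for the 12 replication genes and 0.13 for the 20 mitotic genes. Their values by array did. The median difference of the mitotic genes from their water mean was 0.14, -0.13 and 0.02 on the water arrays and -0.18, -0.16 and 0.69 on the treated arrays. For the replication genes it was -0.04, -0.01 and 0.05 on the water arrays and 0.04, 0.00 and 0.18 on the treated arrays. The lead on ethylenediamine replicate 3 was held by 1 of 12 replication genes (8.33%), which was Mcm2, and by 16 of 20 mitotic genes (80%). Without the cut of 0.3, replicate 3 was the highest array in 6 replication genes (50%) and 16 mitotic genes (80%), against 19.9% of all genes. All 3 treated arrays were above the water mean in 6 replication genes (50%) and in 2 mitotic genes (10%), against 21.8% of all genes. Every treated array was above every water array in 4 of 12 replication genes (33.3%) and 1 of 20 mitotic genes (5%), against 9.2% of all genes. The sets share the 6 arrays, and no test of the difference between them was made.

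The mitotic median depended on 1 animal. Without ethylenediamine replicate 3 it was -0.16, and within slide 1, where replicate 1 stands alone, it was -0.18. The replication median was 0.02 without that animal and 0.04 within slide 1.

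**Figure D4:**
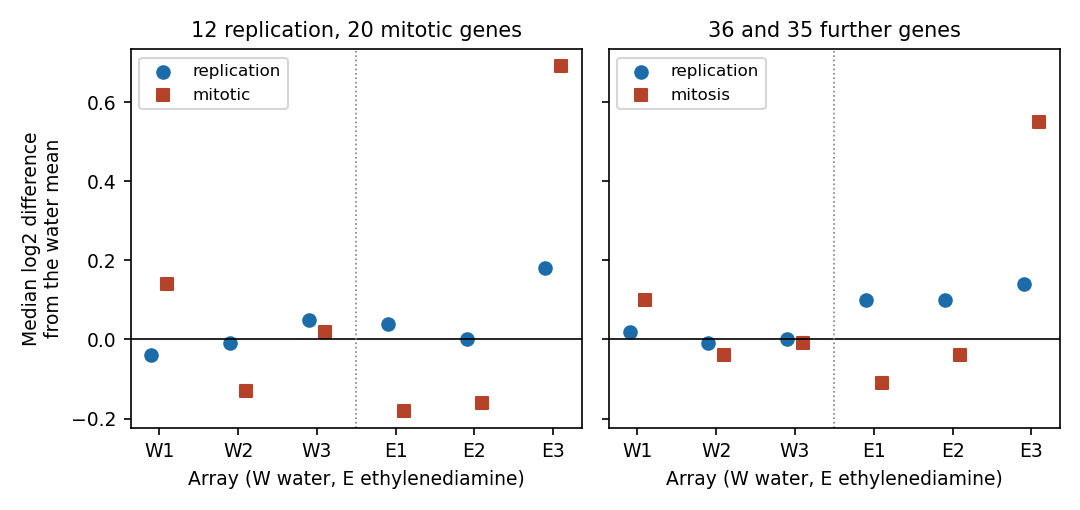
Median over genes of the log2 difference from the water mean (vertical axis) on each array (W water, E ethylenediamine, by replicate), for the 12 replication and 20 mitotic genes (left) and for further genes of the same functions that are not among the 37 (right, 36 and 35 genes). Squares for mitotic genes reach 0.69 on the left and 0.55 on the right on E3 and lie below 0 on E1 and E2, while circles for replication genes lie between 0.00 and 0.18 on the treated arrays.

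Further replication genes (origin recognition, polymerases, clamp loader, chromatin assembly) were measured for 36 of 50 listed. Of these, 7 (19.4%) had an unadjusted limma p below 0.05 with the treated mean higher, against 5.39% of all genes, and 1 with it lower, and 0 passed after adjustment. In 14 (38.9%) every treated array was above every water array, against 9.2% of all genes. Their median log2 fold change was 0.10, and their median on each treated array was 0.10, 0.10 and 0.14. The smallest p-values belonged to Slbp, Rfc3 and Chaf1b. Slbp, which binds the stem-loop of histone mRNA, had log2 signals of 0.36, 0.25 and 0.38 in water and 0.59, 0.55 and 0.61 in ethylenediamine (difference 0.26 ± 0.06, SE, adjusted p = 0.329). The sign for Slbp depends on the probe, since its other kept probes gave 0.01 and -0.31. The clamp loader subunit Rfc3 had 0.50, 0.62 and 0.63 in water and 0.81, 0.78 and 0.92 in ethylenediamine (0.25 ± 0.07, SE, adjusted p = 0.355). Chaf1b, of the histone chaperone CAF-1, had -1.83, -1.91 and -1.88 in water and -1.73, -1.56 and -1.40 in ethylenediamine (0.31 ± 0.09, SE, adjusted p = 0.396). On the probes printed, all of them had treated arrays wholly above the water arrays. The gene that was lower, named here after its value was seen, was the polymerase alpha subunit Pola1 (-0.33 ± 0.11, SE, adjusted p = 0.414). None of the 36 had the lead on ethylenediamine replicate 3, against 2.38% of all genes, a share too low for this count to set them apart. Replicate 3 was still the highest array, by any margin, in 16 of the 36 (44.4%), against 19.9% of all genes.

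Further mitotic genes (kinetochore, spindle, cohesion, cytokinesis) were measured for 35 of 60 listed, and 0 had an unadjusted limma p below 0.05 in either direction, against 10.4% of all genes. The lead on ethylenediamine replicate 3 was held by 20 of the 35 (57.1%), against 2.38% of all genes, and both other treated arrays were below the water mean in 17 (48.6%), against 30.9%. Their median over genes was -0.11, -0.04 and 0.55 on the treated arrays. The smallest p-values were those of the minus-end motor Kifc1 (difference 0.22 ± 0.10, SE, adjusted p = 0.504), the Cdk-binding protein Cks2 (0.27 ± 0.13, SE, adjusted p = 0.547) and the spindle pole protein Aspm (0.19 ± 0.12, SE, adjusted p = 0.635). In the promoter windows of these further lists, E2F words stood in 20 of 46 replication windows (43.5%) and 1 of 55 mitotic windows (1.82%), and the CHR in 8 (17.4%) and 42 (76.4%).

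Of 41 listed regulators of the cycle (cyclins D2 and D3, Cdk inhibitors, pocket proteins, other E2F members, checkpoint genes), 33 were measured. None of the 33 had that lead on ethylenediamine replicate 3, against 2.38% of all genes. With a share that low, 0 of 33 does not set the regulators apart. The median log2 fold change of the 33 was 0.03, and by the brightest probe 0 had an unadjusted limma p below 0.05 in either direction, against 10.4% of all genes. A dimmer kept probe of the Cdk inhibitor Cdkn1a, named after its values were seen, read 0.96, 0.83 and 0.18 in water and 1.56, 1.93 and 2.16 in ethylenediamine (difference 1.22, limma adjusted p = 0.347 over all probes), whereas the brightest Cdkn1a probe gave 0.10. The smallest p-values belonged to the phosphatase Cdc25a (0.18 ± 0.08, SE, adjusted p = 0.506), the repressor E2f4 (0.23 ± 0.12, SE, adjusted p = 0.56) and the transcription factor Myc (0.21 ± 0.12, SE, adjusted p = 0.596).

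Among the 16 mitotic genes with the lead on ethylenediamine replicate 3, 14 had a promoter window, of which 10 held a CHR and 12 a CCAAT word. Of the 4 without the lead, 2 had a window, Kif11 and Kif23, and 1 of these held a CHR.

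Markers of other cell types were read on the same arrays. Of 16 leukocyte markers, 11 were measured, without Cd3e, Cd2, Cd79b, Ms4a1 and Itgam. The summed linear signal of the 11 was 67.9 to 94.1 in water and 80.4 to 81.9 in ethylenediamine, and Lyz2, the brightest, made up most of it. Their median difference from the water mean was 0.15, -0.26 and 0.12 on the water arrays and -0.02, -0.03 and 0.03 on the treated arrays. The pan-leukocyte antigen Ptprc had log2 signals of -0.15, -0.46 and 0.00 in water and -0.25, -0.19 and -0.38 in ethylenediamine, so the groups overlapped. Of 10 markers of injured tubule cells, 9 were measured (all but Sox9). Their summed signal was 59.7 to 79.9 in water and 70.3, 84.5 and 95.5 in treated replicates 1, 2 and 3, and replicate 3 was the highest of the 6 arrays. Of the 9, 2 (22.2%), Havcr1 and Lcn2, had treated arrays wholly above the water arrays, against 9.2% of all genes. Havcr1 passed the filter through the treated group alone, where it is high, so its place in this count is not independent support. The median log2 fold change over the 9 markers was 0.16, with Vcam1 at -0.18 and Krt8 and Krt18 at -0.01 and 0.00. Lcn2 (1.06 ± 0.36, SE, limma adjusted p = 0.424) and Spp1 (1.20 ± 0.40, SE, limma adjusted p = 0.408) were higher, with overlapping groups for Spp1. The lead on ethylenediamine replicate 3 was held by 2 of the 9 (22.2%), Havcr1 and Lcn2, against 2.38% of all genes. Havcr1, the kidney injury molecule of the proximal tubule and the marker with the largest difference, had -5.22, -5.33 and -5.06 in water and -3.71, -2.26 and -1.95 in ethylenediamine (difference 2.56 ± 0.46, SE, adjusted p = 0.329), and it was well above background on 2 of the 3 water arrays. Havcr1 was above its water values on all 3 treated arrays.

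The erythroid markers (6 of 8 measured, and Slc4a1 among them also marks intercalated cells) summed to 12.2 to 13.2 in water and 13.8 to 14.3 in ethylenediamine. Slc4a1 and Tfrc were the brightest of them and made up most of this sum. The median difference of the 6 from the water mean was 0.02, 0.27 and 0.33 on the treated arrays. For 2 of the 6 (33.3%), Tfrc (0.32 ± 0.06, SE, adjusted p = 0.329) and Ahsp (0.63 ± 0.20, SE, adjusted p = 0.401), treated arrays were wholly above the water arrays, against 9.2% of all genes. Estimates were above 0 in 4 of the 6, and Epb42 was at -0.06. The endothelial markers (7 of 8 measured) summed to 37 to 39.8 in water and 29.8 to 37.6 in ethylenediamine, and ethylenediamine replicate 3 was the lowest. The fibroblast and smooth muscle markers (9 of 9) summed to 33.5 to 42.4 in water and 35.1 to 43.0 in ethylenediamine, with a median log2 fold change of 0.23. For 4 of them (44.4%), Tagln, Acta2, Myh11 and Col1a1, every treated array was above every water array, against 9.2% of all genes. The group means of these genes differed by 0.36 to 0.83, and the other kept Myh11 probes gave 0.09, 0.65 and 0.49. Pdgfrb was at 0.23 with overlapping groups. Col3a1 (-0.20), Dcn (-0.10), Col1a2 (-0.08) and Pdgfra (-0.04) had estimates below 0. The distal nephron markers (8 of 8) summed to 483 to 615 and 503 to 539 with a median log2 fold change of -0.27. For 3 of them (37.5%), Calb1 (-0.89), Aqp2 (-0.57) and Atp6v1g3 (-0.43), every treated array was below all water arrays, against 8.27% of all genes. Umod, at 0.25, was the only 1 of the 8 with an estimate above 0. The proximal tubule markers (8 of 8) summed to 1730 to 1800 and 1690 to 1750. Groups did not overlap in 37.5% of them, against 17.5% of all genes. Treated arrays were wholly lower for Lrp2 (-0.19) and Slc5a2 (-0.14) and wholly higher for Slc22a6 (0.02). The part of any of these in the values of the cell cycle genes was not tested.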

How the data were processed

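Total RNA of the renal cortex of 6 rats, 3 per group by the labels, was measured on 1 array each. In the deposited scanner files each spot has a linear intensity that Feature Extraction (Agilent) had corrected for background and spatial trend. Its version is 10.7.1.1 and the grid's build rn4, per the file headers. The submitters' processing notes give version 10.7. The authors' deposited table of processed values is the same intensity divided by the 75th percentile of the array, unlogged and uncentred: 99.97% of probes lay within 2% of that scaling, and its column medians were 0.1076, 0.1053 and 0.1046 for water and 0.1062, 0.1104 and 0.1071 for ethylenediamine. It served as an alternative.

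Here, the log2 of the processed intensity minus the array's 75th percentile was used, without 1439 control spots and 22 probes with an outlier flag. RefSeq accessions named 28194 of 61515 probes through the GRCr8 annotation, used for names and promoter windows only. Probes well above background on all 3 arrays of a group were kept, and the brightest probe stood for a gene (11530 genes, 10930 of them above background on all 6 arrays). No spot was saturated. Group means were fitted in limma 3.58.1 under R 4.3.3 (lmFit, eBayes, Benjamini-Hochberg, 4 residual and 1.84 prior degrees of freedom), tested on simulated data. The number of arrays limits the precision. The closing part gives the alternatives, which were other background, scaling, filter and probe rules, the slide, array weights and leaving out each array. Of these, normexp was run on median signals, chosen after seeing the data.

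The members and lists were chosen with earlier results of these data known. Named members were those measured among Mki67, Top2a, Pcna, Ccnd1, Cdk1, Ccnb1, Ccna2, Ccne1, E2f1, Foxm1, Mcm2 to Mcm7, Rrm1, Rrm2, Tyms and Tk1, any at an unadjusted p below 0.05, and the 3 largest and 3 smallest estimates, 21 in all. The 3 smallest p-values were named in each further list. Other members are given by range and count.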

Additional observations from a re-analysis of the deposited data

How the results depend on the processing

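Under 17 alternatives, 10 of the 21 named members kept the sign of their estimate (Pcna, Ccne1, E2f1, Foxm1, Mcm3, Mcm4, Mcm6, Mcm7, Kif11 and Tpx2), and no named member passed an adjusted p of 0.05 under any. Across the alternatives the adjusted p ran from 0.208 to 0.555 for Mcm3, 0.303 to 0.584 for Mcm6, 0.311 to 0.651 for E2f1, 0.294 to 0.614 for Kif11 and 0.46 to 0.709 for Tpx2. Over all genes, 0 were called higher or lower in the comparison as reported. With the slide as a fixed block 10 were higher, and within slide 1 5 were higher and 1 lower. Leaving out each array gave 0 to 1 higher, with 1 without water replicate 2 and 1 without ethylenediamine replicate 1. The cause of these differences was not tested.

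The signs of 5 members turned within slide 1 and under the slide block, settings that leave ethylenediamine replicate 1 against water: Mki67 to -0.09, Ccnd1 to -0.18, Cdk1 to -0.14, Ccnb1 to -0.34 and Mcm2 to -0.07. With the mean of all probes, Ccna2 turned to 0.16. Leaving out each array, the estimates of the members whose sign turned ran from -0.08 to 0.26 for Mki67, -0.25 to 0.31 for Ccnd1, -0.14 to 0.37 for Cdk1, -0.18 to 0.51 for Ccnb1, -0.39 to 0.11 for Ccna2, -0.05 to 0.20 for Mcm2, -0.06 to 0.00 for Rrm1, -0.27 to 0.11 for Rrm2, -0.14 to 0.04 for Tyms, -0.21 to 0.02 for Tk1 and -0.05 to 0.63 for Cenpf. The turns of Mki67, Ccnd1, Cdk1, Ccnb1, Mcm2 and Cenpf came without ethylenediamine replicate 3.

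The mitotic median of 0.13 ran from -0.16 to 0.30 over the arrays left out, and the replication median of 0.08 from 0.02 to 0.10. Replicate numbers did not pair the animals (correlations of same-numbered deviations -0.003, 0.022 and -0.008), and with a replicate block the medians were 0.08 and 0.13, with 0 genes called. Median scaling moved the median of all genes by the most, to -0.032. Normexp correction on mean signals, as planned, was not run, because the files used here hold median signals.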

Other observations

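The genes below were chosen after their values were seen. Ethylenediamine replicate 3, where the mitotic genes were highest, also led in transcripts of other functions. Its lead over the next array was 1.60 for Fkbp5, a glucocorticoid-inducible co-chaperone (log2 signals of 2.19, 2.18 and 1.59 in water and 1.45, 2.08 and 3.79 in ethylenediamine), 1.34 for the transcriptional repressor Bcl6 (2.21, 1.20 and 1.85 against 0.88, 1.18 and 3.56) and 1.24 for the zinc finger factor Zbtb16 (-5.30, -3.94 and -4.80 against -4.16, -3.27 and -2.03). These were the leads ranked 7, 9 and 13 of 11530 genes. Tsc22d3, another glucocorticoid-inducible gene, did not lead there (2.70, 2.63 and 2.03 against 2.39, 2.15 and 2.60). None of the 4 passed the test between the groups (limma adjusted p of 0.809, 0.969, 0.479 and 0.93 for Fkbp5, Bcl6, Zbtb16 and Tsc22d3).

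Incenp, the scaffold of the chromosomal passenger complex, was the lowest of the 35 further mitotic genes on ethylenediamine replicate 3 relative to its water mean, where 5 of the 35 lay below it. It had log2 signals of -1.04, 0.54 and 0.63 in water and 1.49, 0.88 and -0.93 in ethylenediamine. Albumin (Alb), the main secreted protein of the liver, had -5.03, -5.41 and -5.77 in water, where 1 of 3 arrays was well above background, and -2.04, -3.89 and -2.29 in ethylenediamine, where all were.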
